A study of Mus musculus with 8 samples.

Results

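The proteasome genes described here are the 50 protein-coding genes, of 35275 listed, whose symbol begins with Psm followed by a letter from a to g and a digit. Another 3 matching rows were pseudogenes and were left out. The genes comprise 8 alpha subunits and 7 constitutive beta subunits of the 20S core, 3 immunoproteasome beta subunits, the thymic beta subunit Psmb11, 6 ATPases and 14 non-ATPase proteins of the 19S regulator, 6 activators and inhibitors, 4 assembly chaperones, and Psmc3ip, which matches by name but encodes a recombination factor. RNA was sequenced from renal cortex of 8 mice at postnatal day 7, with 1 library from each of 4 Cre-negative control mice and 4 Six2-Tfam knockout mice, called mutants here. Tfam encodes the protein that packages and transcribes mitochondrial DNA, and Six2 is active in the progenitors of the nephron epithelium, so the knockout is targeted to that lineage while vessels, stroma and immune cells arise elsewhere. The labels give neither the alleles in full nor sex, and no group carried Cre with intact Tfam. Nothing in the labels says which mice were littermates.

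The proteasome is the barrel-shaped protease that degrades ubiquitin-tagged proteins. Its 20S core is built of rings of alpha subunits, which gate the channel, and beta subunits, of which Psmb5, Psmb6 and Psmb7 carry the chymotrypsin-like, caspase-like and trypsin-like active sites. The 19S regulator recognises ubiquitin chains, removes them and unfolds the substrate with its ring of ATPases. In cells exposed to interferon, and in most immune cells, Psmb8, Psmb9 and Psmb10 replace Psmb5, Psmb6 and Psmb7 to form the immunoproteasome. When proteasome capacity is short, mammalian cells raise the genes of core and regulator together through the transcription factor NFE2L1, which binds elements of the antioxidant-response type. In the tubule the proteasome takes part in turnover of transporters and of damaged proteins.

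Promoter sequences of 5 members are shown because Psmb5, Psme3, Psmg4 and Psmb10 had the largest rises of the family and Psmb6 serves as a contrast, a catalytic neighbour of Psmb5 that holds the same motif and did not pass the test. Each is the 250 bases before the annotated start, 5′ to 3′ on the strand of the gene, from RefSeq on GRCm38.p6. Capitals mark the motif TGACNNNGC, the core of antioxidant-response elements, on either strand. In Psmb5 and Psmb10 the start that GENCODE gives lies within the window.
Psmb5, chr14:54617996-54618245, minus strand: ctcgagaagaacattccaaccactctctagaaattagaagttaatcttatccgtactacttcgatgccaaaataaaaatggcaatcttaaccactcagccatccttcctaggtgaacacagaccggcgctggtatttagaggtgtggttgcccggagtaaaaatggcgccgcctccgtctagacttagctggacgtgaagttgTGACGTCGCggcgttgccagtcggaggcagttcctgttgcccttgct
Psmb6, chr11:70525107-70525356, plus strand: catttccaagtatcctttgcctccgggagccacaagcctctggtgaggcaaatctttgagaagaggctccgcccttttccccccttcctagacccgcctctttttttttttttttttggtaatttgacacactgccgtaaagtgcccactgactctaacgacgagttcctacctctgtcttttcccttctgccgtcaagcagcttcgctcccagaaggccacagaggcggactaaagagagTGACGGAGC
Psme3, chr11:101315963-101316212, plus strand: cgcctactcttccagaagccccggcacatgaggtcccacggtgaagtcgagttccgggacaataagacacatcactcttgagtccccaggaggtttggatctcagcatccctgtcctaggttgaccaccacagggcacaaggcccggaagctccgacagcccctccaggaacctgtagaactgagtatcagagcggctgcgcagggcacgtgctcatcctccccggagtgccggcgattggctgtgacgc
Psmg4, chr13:34162714-34162963, plus strand: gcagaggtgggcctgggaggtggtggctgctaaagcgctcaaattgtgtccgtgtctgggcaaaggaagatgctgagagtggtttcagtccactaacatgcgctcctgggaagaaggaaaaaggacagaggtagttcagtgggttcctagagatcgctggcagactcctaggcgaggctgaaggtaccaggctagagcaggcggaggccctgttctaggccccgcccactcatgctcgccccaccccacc
Psmb10, chr8:105938393-105938642, minus strand: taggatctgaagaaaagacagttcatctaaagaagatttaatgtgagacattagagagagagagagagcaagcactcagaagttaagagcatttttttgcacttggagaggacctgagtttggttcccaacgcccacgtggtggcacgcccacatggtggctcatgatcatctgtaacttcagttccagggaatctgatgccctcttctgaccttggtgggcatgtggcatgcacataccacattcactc
The motif begins 47 bases before the start in Psmb5 and 9 bases before it in Psmb6, and is not in the other 3 windows. Both TGACNNNGC and TGATGNAA, the composite element bound by ATF4 with C/EBP partners, were searched on both strands in the same 250 bases of the 27025 genes that the RefSeq promoter table holds. Promoters were listed for 42 of the 50 members, and the members not listed were Psma8, Psmb1, Psmb2, Psmb7, Psmc3, Psmd3, Psmd7 and Psmg2. TGACNNNGC was found in 5 of the 42 members (11.9%), namely Psmb5, Psmb6, Psmc6, Psmd9 and Psmd12, against 11.5% of 27025 genes. It was in 3 of 26 members that rose (11.5%) and in 2 of the other 16 (12.5%), so the members held it about as often as genes at large. TGATGNAA was in 1 of the 42, Psmd13 (2.38%), against 3.91% of genes, and none of the 45 member windows held both motifs.

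Total counted reads per library ranged from 15597762 to 20417550, and Tfam was at 766 to 907 counts in controls and 458 to 554 in mutants. Mitochondrial mRNAs were also lower in the mutants without overlap, at 3.88 to 9.28% of counts in controls and 1.15 to 1.84% in mutants. Counts of 4 Y-linked genes together were 0 to 3 in the controls and 4294 to 4915 in Mut1393, Mut1453 and Mut1454, but 27 in Mut1819, so that 3 mutants differ from all controls in these sex-linked counts as well as in genotype. Results with Mut1819 alone are therefore given below. Levels per mouse are CPM, read counts scaled to a common library size by TMM, and are listed in the order Con1391, Con1452, Con1822 and Con1823 and then Mut1393, Mut1453, Mut1454 and Mut1819. Means are ± SD with n = 4 mice, and gene positions are from GENCODE M21 on GRCm38. Log2 fold changes compare mutants to controls, and a gene is said to rise or fall when its edgeR quasi-likelihood p, adjusted by Benjamini-Hochberg over all 15028 genes tested, was under 0.05.

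Most of the proteasome genes were higher in the mutants, by small amounts. Of 48 members with enough counts to test, 29 rose (60.4%), against 23.5% of all genes tested, and 1 fell (2.08%), against 22.7%. The remaining 18 did not pass. The median log2 fold change was 0.20 over the 48 members and -0.00078 over all genes tested, and 42 of the 48 were above 0, against 49.9% of all genes. All 4 mutants were above all 4 controls for 24 members (50%), against 22.1% of all genes. These counts describe the members, which were chosen with earlier results of these data known. Together the members other than Psmc3ip took 0.443, 0.421, 0.443 and 0.427% of counted reads in control mice against 0.481, 0.521, 0.539 and 0.509% in mutant mice, without overlap. These shares are of all counted reads, of which mitochondrial mRNAs took less in mutants. That alone raises the share of other genes in mutants, and how much of the gap it makes was not computed. Because whole cortex was sequenced, a change in the number of cells of a type and a change of RNA per cell cannot be told apart. Proximal tubule markers were lower in the same mutants, with 6 of 6 falling and a summed level of 3719 to 4999 CPM in controls and 544 to 997 CPM in mutants, while loop of Henle and distal tubule markers fell in 4 of 4 cases, from 2286 to 2719 CPM to 1009 to 1322 CPM. Markers of endothelium fell in 5 of 5 cases and those of podocytes and of the collecting duct in 3 of 4 each. The part of these cell types in the proteasome results was not tested.

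**Figure D1:**
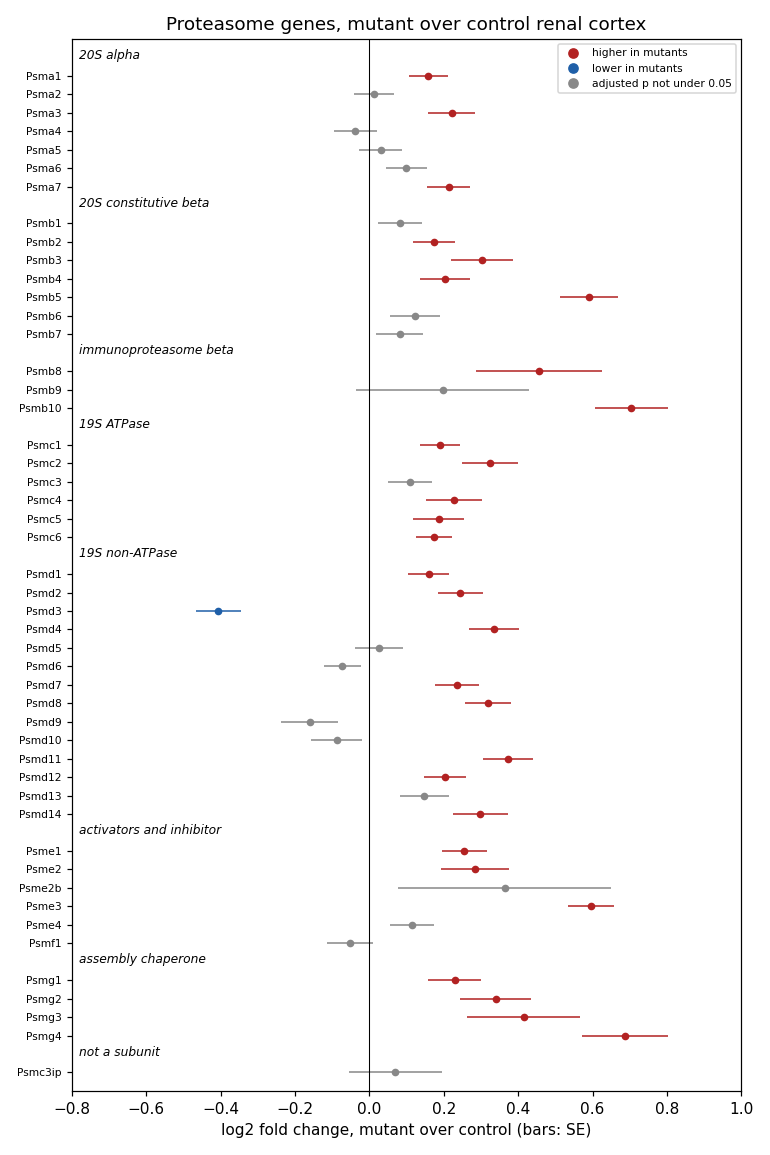
Log2 fold change (mutants against controls, x axis) of the 48 tested proteasome genes with bars of 1 SE, grouped by class, with n = 4 mice a group. Most points lie between 0 and 0.4, Psmb5, Psmb10, Psme3 and Psmg4 lie near 0.6 to 0.7, and Psmd3 alone among the called genes lies below 0.

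The mutants differed in the size of the rise. The median log2 level of the 48 members relative to the control mean was 0.09 in Mut1393, 0.22 in Mut1453, 0.28 in Mut1454 and 0.17 in Mut1819, while the controls lay between -0.03 and 0.03 and the median over all genes was at most 0.01 from 0 in every mouse. Mut1454 was the highest mutant for 23 of the 29 members that rose and Mut1393 the lowest for 24. Each of the 4 mutants was above the control mean for all 29, and above the highest control for 24 in Mut1393, 29 in Mut1453, 29 in Mut1454 and 28 in Mut1819. The 29 were picked as higher with these same mice, so these counts partly follow from that choice and are a description. Without Mut1454 the count that rose was 19 in place of 29, against 20.5% of all genes, and 2 fell, against 20% of all genes. Without Mut1453 it was 22, against 20.3% of all genes, and 1 fell, against 19.8%. The 10 that no longer passed without Mut1454 were Psma1, Psmb2, Psmb4, Psmb8, Psmc4, Psmc5, Psmd1, Psme2, Psmg1 and Psmg3, and the other 19 passed with any 1 mouse left out. At an adjusted p under 0.01, 13 members rose, against 16.6% of all genes. With the other tools, scalings, filters and terms except that for Y-linked counts, 26 to 29 members rose, against 15.7 to 26.6% of all genes, and 1 fell, against 14% to 24.6%.

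**Figure D2:**
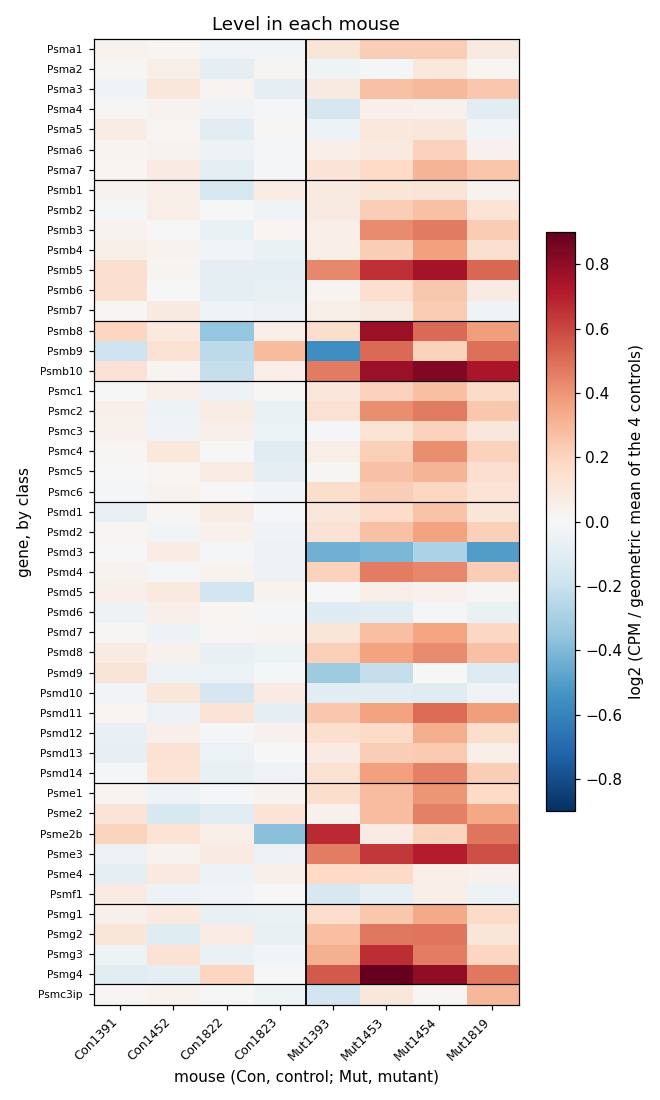
Level of each tested proteasome gene (rows, by class) in each mouse (columns) as log2 of CPM over the geometric mean of the 4 controls. Red rows are spread over the classes of core, regulator, activators and assembly chaperones in the mutants, in most of them palest in Mut1393 and deepest in Mut1454, with Psmd3 blue in all 4 mutants.

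With Mut1819 set alone against the 4 controls, which had at most 3 Y-linked counts each, 4 members rose (8.33%, against 11.6% of all genes) and 1 fell (2.08%, against 13.4%). In this fit the spread comes from the controls only, and the single mutant library is assumed to vary like them. The genes that passed were Psmb5, Psmb10, Psmd11 and Psme3, which were higher, and Psmd3, which was lower. A fit over all mice with a term for Y-linked counts rests on the same mutant library for its genotype contrast and gives the same fold changes by construction, with the spread taken from both sets of mice that have replicates. It also called 4 members higher and 1 lower, against 12.6 and 13.8% of all genes, and is no second line of evidence. The members' median was 0.17 in both fits, which is 1 observation because the fits share their fold changes. All 29 members kept a log2 fold change above 0, but they were picked as higher in a fit that included Mut1819 and the same controls. A contrast that rests on 1 mutant library has little power for changes of this size, so the share of members that passed in it says little about them. For every member the contrast free of the sex-linked difference thus rests on 1 mutant mouse, and within the other 3 mutants genotype and that difference cannot be told apart.

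**Figure D3:**
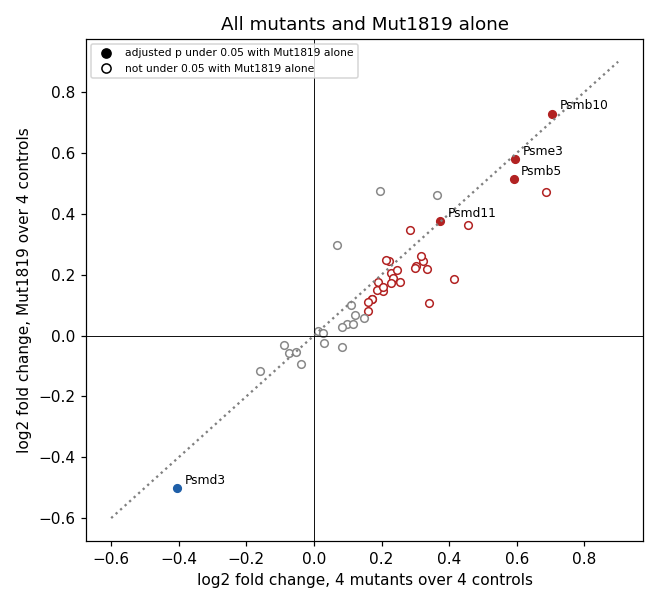
Log2 fold change of each tested proteasome gene with all 4 mutants (x axis) against that with Mut1819 alone (y axis), both against the 4 controls, with a dotted line of equality and colours as in the plot of fold changes by class (red rose, blue fell, grey did not pass with all mutants). Filled points, named beside them, had an adjusted p under 0.05 with Mut1819 alone.

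Of the alpha subunits of the 20S core, 3 of 7 tested rose, against 23.5% of all genes tested. These were Psma7, Psma3 and Psma1, and the other 4 did not pass. Each class holds few genes, and the count of a single class was not tested against the share over all genes. Psma7 was at 142, 148, 133 and 139 CPM in control mice against 153, 159, 174 and 167 CPM in mutant mice (log2 fold change 0.21 with SE 0.06 and adjusted p = 0.0103). Psma3 was at 129.6, 143, 135 and 126 CPM in control mice against 141, 160.0, 164 and 158 CPM in mutant mice (log2 fold change 0.22 with SE 0.06 and adjusted p = 0.013). The lowest mutant of Psma3, Mut1393, lay below the highest control, whereas the groups did not overlap for Psma7. Psma1 was at 129.9, 129, 125 and 125 CPM in control mice against 137, 148, 148 and 134 CPM in mutant mice, also without overlap (log2 fold change 0.16 with SE 0.05 and adjusted p = 0.0272). Psma6 was at 129.8, 131, 123 and 126 CPM in control mice against 133, 136, 147 and 131 CPM in mutant mice, where all mutants exceeded all controls by a small margin but the test was not passed (log2 fold change 0.10, adjusted p = 0.156). Psma2, Psma4 and Psma5 had log2 fold changes from -0.04 to 0.03, and their groups overlapped. Psma8, an alpha subunit of the testis, had 23 reads over the controls and 32 over the mutants and was not tested.

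Among the constitutive beta subunits, 4 of 7 rose, against 23.5% of all genes tested, led by the catalytic subunit Psmb5. The other catalytic subunits Psmb6 and Psmb7 did not pass. Psmb5 (ENSMUSG00000022193, chromosome 14, 54614119 to 54618022, minus strand) was at 112, 103, 95.5 and 95.9 CPM in control mice against 137, 160.2, 170.2 and 145 CPM in mutant mice. Every mutant was above every control, and the mean went from 102 ± 7.92 to 153 ± 14.8 CPM, a factor of 1.51 (log2 fold change 0.59 with SE 0.08 and adjusted p = 6.78e-05). Psmb6, which carries the caspase-like site, was at 136, 123, 117 and 118 CPM in control mice against 125, 137, 146 and 129 CPM in mutant mice (log2 fold change 0.12 with SE 0.07 and adjusted p = 0.163). Psmb7, which carries the trypsin-like site, was at 127, 134, 123 and 122 CPM in control mice against 131, 133, 148 and 123 CPM in mutant mice (log2 fold change 0.08 with SE 0.06 and adjusted p = 0.313). The groups of Psmb6 and Psmb7 overlapped, and control Con1391 was above mutants Mut1393 and Mut1819 for Psmb6. The difference between the change of Psmb5 and that of Psmb6 or Psmb7 was not tested. Among the subunits without an active site, Psmb3 was at 83.7, 82.2, 78.5 and 83.01 CPM in control mice against 85.1, 109.8, 113 and 95.8 CPM in mutant mice (log2 fold change 0.30 with SE 0.08 and adjusted p = 0.00986), with Mut1393 just above the controls. Psmb2 was at 63.3, 66.7, 63.7 and 62.3 CPM in control mice against 67.7, 74.7, 76.6 and 69.5 CPM in mutant mice and Psmb4 at 162, 160.2, 154 and 150.4 CPM in control mice against 164, 182, 202 and 173 CPM in mutant mice, both without overlap (log2 fold changes 0.17 and 0.20, adjusted p = 0.026 and 0.0276). Psmb1 had a log2 fold change of 0.08 and did not pass. Reads of Psmb5 and Psmb3 can be shared with copies that match 88.4 and 80.7% of their transcripts at 95% identity or more. Those of Psmd2, Psmc1 and Psmd11 can be shared over 98.2, 82.0 and 52.7%. Other genes also match 76.7, 76.5 and 32.5% of the transcripts of Psma4, Psma5 and Psma3, and 35.1% of that of Psmb7. The sources used here do not say how the authors' counting split such reads.

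The immunoproteasome subunits were expressed far below the constitutive ones, and Psmb10 had the largest rise of all the members. Psmb10 (ENSMUSG00000031897, chromosome 8, 105935735 to 105938444, minus strand) was at 20.4, 18.96, 16.1 and 19.4 CPM in control mice against 25.7, 32.00, 33.3 and 31.04 CPM in mutant mice. The groups were well apart, and the mean went from 18.7 ± 1.82 to 30.5 ± 3.32 CPM, a factor of 1.63 (log2 fold change 0.70 with SE 0.10 and adjusted p = 1.01e-04). Psmb8 was at 5.36, 4.98, 3.68 and 4.89 CPM in control mice against 5.22, 8.04, 6.68 and 6.09 CPM in mutant mice (log2 fold change 0.46 with SE 0.17 and adjusted p = 0.0442), and its lowest mutant, Mut1393, fell below the highest control. Psmb9 was at 3.22, 4.02, 3.11 and 4.47 CPM in control mice against 2.49, 5.21, 4.24 and 5.16 CPM in mutant mice, with wide overlap and the lowest value of all 8 mice in Mut1393 (log2 fold change 0.20 with SE 0.23 and adjusted p = 0.521). Psmb8 and Psmb9 rest on 307 and 241 reads over the controls and 494 and 322 over the mutants, so that their counting error is larger than that of Psmb10, with 1214 and 2330. Psmb11, which is known from the thymic cortex, had 0 reads in the controls and 3 in the mutants, all in Mut1454.

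Per length, as the authors' FPKM, Psmb8 stood at 2.79% ± 0.325 of Psmb5 in controls and 2.54% ± 0.330 in mutants. The log2 ratio differed by -0.13 (two-sided exact permutation test, p = 0.4, and 0.6 adjusted over the 3 ratios). Psmb9 stood at 2.12% ± 0.447 of Psmb6 in controls against 2.22% ± 0.645 in mutants, a difference of 0.04 in the log2 ratio (exact p = 0.886, adjusted 0.886). Neither ratio was distinguishable between the groups, and single mice ranged from 2.28 to 3.07% for the first and from 1.39 to 2.79% for the second. Psmb10 stood at 11.2, 9.89, 9.14 and 11.1% of Psmb7 in control mice and 13.7, 16.7, 15.7 and 17.6% in the mutants. All mutants were above all controls, and the log2 ratio was higher by 0.62 in mutants (exact p = 0.0286, the smallest that 4 mice against 4 allow, and 0.0857 adjusted over the 3 ratios, which misses 0.05).

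Macrophage and general haematopoietic markers were higher in the same mutants. All 7 macrophage markers and all 5 general haematopoietic markers rose, with summed levels of 112 to 128 CPM in controls and 193 to 228 CPM in mutants for the former and 45.6 to 55.4 against 69.2 to 86.0 CPM for the latter. T and NK cell markers summed to 0.826 to 2.36 CPM in controls and 1.12 to 2.03 CPM in mutants, and B cell markers to 3.97 to 5.62 and 3.70 to 4.88 CPM. No T or NK cell marker had enough counts to test, and neither of the 2 B cell markers tested passed. The part of these cells in the rise of Psmb8 and Psmb10 was not tested. Of 13 partners of the immunoproteasome in interferon signalling and antigen presentation, 4 rose and none fell, and 9 did not pass, against 23.5% of all genes higher and 22.7% lower. The share that rose was near that background. Irf1, a transcription factor that switches on immunoproteasome genes, was at 16.8, 17.6, 16.7 and 17.6 CPM in control mice against 22.9, 24.4, 23.9 and 26.7 CPM in mutant mice, without overlap (log2 fold change 0.51 with SE 0.07 and adjusted p = 1.50e-04). Erap1, the peptidase that trims peptides in the endoplasmic reticulum, rose by 0.29 (adjusted p = 0.00133), and the class I heavy chain gene H2-K1 by 0.57 (adjusted p = 0.00264). The fourth was Irf7, chosen here after its values were seen, with overlapping groups and a log2 fold change of 0.67. The peptide transporter gene Tap1, whose exons overlap 5.8% of those of Psmb9, had a log2 fold change of 0.16 and did not pass, and was also named after its values were seen.

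**Figure D4:**
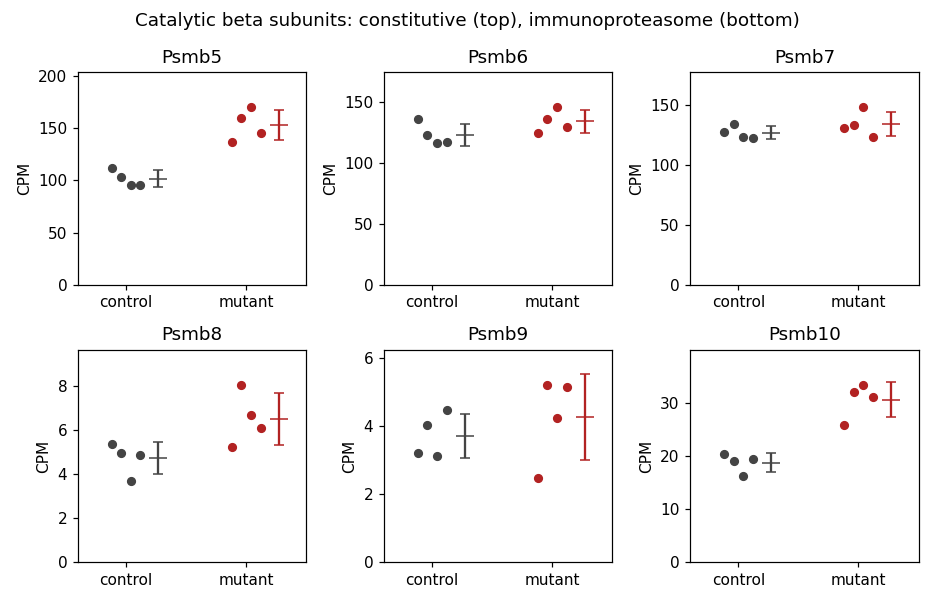
CPM of the 6 catalytic beta subunits in each mouse (points) with the mean and SD beside them, n = 4 mice a group, on axes that start at 0 and differ in scale. Psmb5 and Psmb10 show no overlap between groups, Psmb6, Psmb7, Psmb8 and Psmb9 do.

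The ATPases of the 19S base, which unfold the substrate, rose in 5 of 6 cases, against 23.5% of all genes tested. Psmc3 did not pass. Psmc2 was at 105, 98.6, 107 and 97.5 CPM in control mice against 112, 136, 141 and 121 CPM in mutant mice (log2 fold change 0.32 with SE 0.07 and adjusted p = 0.00368). Psmc6 was at 104, 107, 105 and 103 CPM in control mice against 117, 122, 119 and 114 CPM in mutant mice (log2 fold change 0.17 with SE 0.05 and adjusted p = 0.0108), and Psmc1 was at 139, 144, 134 and 140.2 CPM in control mice against 149, 161, 168 and 157 CPM in mutant mice (log2 fold change 0.19 with SE 0.05 and adjusted p = 0.0126). None of these 3 overlapped between groups. Psmc4 was at 92.1, 96.97, 90.8 and 84.3 CPM in control mice against 94.6, 105, 122 and 105 CPM in mutant mice, where Mut1393 lay below Con1452 (log2 fold change 0.23 with SE 0.08 and adjusted p = 0.0275). Psmc5 rose by 0.19 with overlapping groups, and Psmc3 differed by 0.11 without passing (adjusted p = 0.153).

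The non-ATPase proteins of the 19S regulator held both rises and the only fall. In the base, Psmd1 and Psmd2, the large scaffold proteins, and Psmd4, a receptor for ubiquitin chains, all rose. Psmd4 was at 84.8, 82.3, 85.1 and 80.2 CPM in control mice against 96.1, 114, 112 and 96.6 CPM in mutant mice (log2 fold change 0.33 with SE 0.07 and adjusted p = 0.00154), while Psmd2 rose by 0.24 and Psmd1 by 0.16, each without overlap. In the lid, 5 of 8 proteins rose, against 23.5% of all genes tested, 1 fell, against 22.7%, and 2 did not pass. Psmd11 was at 90.3, 85.9, 96.7 and 84.4 CPM in control mice against 106, 115, 126 and 116 CPM in mutant mice (log2 fold change 0.37 with SE 0.07 and adjusted p = 6.56e-04), and every mutant was above every control. Psmd8 was at 144, 140.1, 130.2 and 133 CPM in control mice against 159, 175, 184 and 164 CPM in mutant mice (log2 fold change 0.32 with SE 0.06 and adjusted p = 0.00116), again without overlap. Psmd14, the deubiquitinase of the lid, rose by 0.30, Psmd7, its partner, by 0.23 and Psmd12 by 0.20. Psmd6 and Psmd13 had log2 fold changes of -0.07 and 0.15 and did not pass. Psmd3 (ENSMUSG00000017221, chromosome 11, 98682554 to 98695979, plus strand), also a lid scaffold, was at 283, 296, 279.8 and 272 CPM in control mice against 209, 213, 231 and 199.7 CPM in mutant mice. It fell in every mutant below every control, from 283 ± 9.84 to 213 ± 13.3 CPM (log2 fold change -0.41 with SE 0.06 and adjusted p = 1.77e-04). Its log2 fold change lay between -0.50 and -0.37 under every setting tried. Psmd5, Psmd9 and Psmd10 are chaperones that help assemble the base and are not part of the finished particle, and none of the 3 passed, with log2 fold changes of 0.03, -0.16 and -0.09. Con1391 held the highest Psmd9 level of all mice, and another gene shares 25.5% of its exon bases, so that its counts are less certain.

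Of the activators, which dock on the core in place of the 19S regulator, the nuclear activator Psme3 changed most, and the inhibitor did not pass. Psme3 (ENSMUSG00000078652, chromosome 11, 101316213 to 101323537, plus strand), which encodes PA28 gamma, was at 106, 112, 116 and 106 CPM in control mice against 151, 170.2, 179 and 164 CPM in mutant mice. The groups were far apart, and the mean went from 109.8 ± 4.86 to 166 ± 11.8 CPM, a factor of 1.51 (log2 fold change 0.60 with SE 0.06 and adjusted p = 1.05e-05), the smallest adjusted p of all members. Psme1, which encodes the alpha chain of the interferon-inducible activator PA28, was at 90.98, 86.9, 88.1 and 90.99 CPM in control mice against 99.6, 108, 117 and 101 CPM in mutant mice, without overlap (log2 fold change 0.26 with SE 0.06 and adjusted p = 0.00461). Psme2, which encodes its beta chain, was at 55.8, 46.7, 48.3 and 56.01 CPM in control mice against 53.03, 62.6, 70.5 and 65.8 CPM in mutant mice (log2 fold change 0.28 with SE 0.09 and adjusted p = 0.0243), and its lowest mutant, Mut1393, fell below Con1391 and Con1823. Psme2 shares most of its sequence with Psme2b, which had 36 reads over the controls and 55 over the mutants, and counts of both are uncertain. Psme4, which encodes the activator PA200, was at 138, 155, 142 and 151 CPM in control mice against 166, 165, 152 and 150.3 CPM in mutant mice (log2 fold change 0.11 with SE 0.06 and adjusted p = 0.136), and Psmf1, which encodes the inhibitor PI31, differed by -0.05 on the log2 scale without passing (adjusted p = 0.523).

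All 4 chaperones that assemble the 20S core, Psmg1 to Psmg4, rose, against 23.5% of all genes tested. Psmg4 (ENSMUSG00000071451, chromosome 13, 34162964 to 34178173, plus strand) was at 10.7, 10.8, 13.1 and 11.5 CPM in control mice against 16.8, 21.4, 19.98 and 15.96 CPM in mutant mice, and every mutant was above every control (log2 fold change 0.69 with SE 0.12 and adjusted p = 4.46e-04). Psmg2, the partner of Psmg1 in placing the alpha subunits, was at 21.9, 18.8, 21.2 and 19.4 CPM in control mice against 24.5, 28.2, 28.3 and 21.9 CPM in mutant mice (log2 fold change 0.34 with SE 0.10 and adjusted p = 0.0118), with Mut1819 level with Con1391. Psmg1 was at 23.5, 24.2, 21.7 and 21.8 CPM in control mice against 25.4, 26.9, 28.9 and 25.7 CPM in mutant mice (log2 fold change 0.23 with SE 0.07 and adjusted p = 0.0209). Psmg3, the partner of Psmg4, was at 3.41, 3.84, 3.37 and 3.44 CPM in control mice against 4.39, 5.55, 4.82 and 4.003 CPM in mutant mice (log2 fold change 0.41 with SE 0.15 and adjusted p = 0.0415). The groups of Psmg1 and Psmg3 did not overlap, though Psmg3 rests on 228 and 358 reads. With Mut1819 alone, an arm of 1 library, none of the 4 passed. Psmc3ip, the member that is no proteasome protein, was at 7.32, 7.44, 7.24 and 7.07 CPM in control mice against 6.43, 7.81, 7.36 and 8.94 CPM in mutant mice, with overlap (log2 fold change 0.07 with SE 0.12 and adjusted p = 0.682).

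Genes that work with the proteasome but carry other names were looked at in 6 lists of 45 matched genes, of which 22 rose and 2 fell, while 21 missed the threshold, and the median change was 0.19 on the log2 scale. Of all genes tested, 23.5% rose and 22.7% fell, and the counts of the single lists are to be read against these shares. Of 2 subunits with other names, Adrm1, a ubiquitin receptor of the base, rose by 0.23 (adjusted p = 0.0284) with overlapping groups, and Shfm1, the small lid subunit also called Sem1, did not pass (-0.03). Of 12 enzymes and adaptors that bind the proteasome, 9 rose and 3 did not pass. Rad23b, a shuttle for ubiquitinated proteins, was at 166, 161, 171 and 169.9 CPM in control mice against 219.7, 230.4, 252 and 228 CPM in mutant mice, without overlap (log2 fold change 0.48 with SE 0.06 and adjusted p = 3.12e-05). Zfand5, which activates the particle, rose by 0.43 (adjusted p = 1.45e-04), and Usp14, the deubiquitinase bound to the base, by 0.41 (adjusted p = 1.73e-04). The groups of both were apart. Pomp, which matures the core, and Akirin2 and Ipo9, which act in its nuclear import, did not pass, with log2 fold changes from -0.04 to 0.15, and Paaf1 was not matched.

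In the list of the NFE2L1 pathway, 4 of 9 genes rose, against 23.5% of all genes, 1 fell, against 22.7%, and 4 did not pass. Nfe2l1 itself was at 392, 349, 382 and 392 CPM in control mice against 499, 526, 529.9 and 508 CPM in mutant mice, with every mutant above every control (log2 fold change 0.44 with SE 0.06 and adjusted p = 8.60e-05). Its log2 fold change was 0.42 in Mut1819 alone. Nfe2l2, the related factor of the oxidative stress response, rose by 0.33 (adjusted p = 5.53e-04). Ngly1, the glycanase that helps activate NFE2L1 protein, was at 48.8, 50.6, 49.2 and 47.9 CPM in control mice against 41.7, 40.5, 40.4 and 36.6 CPM in mutant mice and fell in every mutant (log2 fold change -0.30 with SE 0.06 and adjusted p = 0.00118). The protease gene Ddi2, which cuts NFE2L1, had a log2 fold change of 0.02, and that of the extraction motor Vcp was 0.09, both named after their values were seen, and neither passed. Of 6 genes for ubiquitin and its E1 enzymes, 4 rose, against 23.5% of all genes, 1 fell, against 22.7%, and 1 did not pass. Rps27a, which encodes ubiquitin fused to a ribosomal protein, was at 409.8, 357, 288 and 373 CPM in control mice against 569, 591, 559 and 516 CPM in mutant mice, without overlap (log2 fold change 0.65 with SE 0.10 and adjusted p = 1.65e-04). Uba6, an E1 enzyme, rose by 0.25 (adjusted p = 0.022). The polyubiquitin gene Ubb, named after its values were seen, fell by 0.28 on the log2 scale (adjusted p = 0.0402), with no overlap between groups, and its adjusted p ranged from 0.0344 to 0.125 with a mouse left out.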

How the data were processed

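Renal cortex RNA was sequenced from 8 mice. Per the submitters' processing notes, Bowtie2, TopHat2, HTSeq and DESeq2 were used on build mm10. The sources used here give no versions, annotation release or strand setting. Whether reads from genes overlapping on opposite strands were told apart is therefore not known. Read counts and FPKM per mouse are in the deposited table, per the file headers. FPKM was made by the authors from these counts, relative to length and total, with a single length that recomputed to within 1e-06 for each of the 16666 genes with counts in every mouse. It also holds a mean signal per group, a log2 fold change, and a p-value and adjusted p-value from the authors' own comparison. Of the 49 members with an adjusted p in the authors' deposited table, 28 were higher and 1 lower by it. That comparison uses the same 8 libraries and is no second line of evidence. The share of all genes called in it was not computed.

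edgeR 4.0.16 (R 4.3.3) was run on the counts (filterByExpr, TMM, quasi-likelihood, all 8 mice, no covariate), with Benjamini-Hochberg adjustment over 15028 genes. Psma8 and Psmb11 did not reach the filter. SE is the fold change divided by the root of the F statistic. The 3 subunit ratios were tested by exact permutation over 70 assignments. The scripts were checked on simulated counts. Other settings were DESeq2 1.42.0, limma 3.58.1 (voom) and those named under the dependence on processing. Coordinates are from GENCODE M21 (GRCm38), matched by Ensembl identifier, promoters were matched by symbol, and similar transcripts were sought with BLAST 2.17.0 at 95% identity over 100 bases. Plots used matplotlib 3.10.9. The library total, 15597762 to 20417550 counts, sets the precision of low counts. Nothing says how far the mice are independent beyond their separate numbers.

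The members and lists were chosen with earlier results of these data known. Values in every mouse are given for the 6 catalytic beta subunits and for up to 4 members of each class with the smallest adjusted p, and of the pathway lists Nfe2l1 and up to 3 genes each with the smallest adjusted p are named, except for an item that is not reported here.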

Additional observations from a re-analysis of the deposited data

Results flagged for a closer look

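In 2 of the 102 groups of 4 mice that were looked at, the levels of the 48 tested members and the 3 ratios, a single mouse stood far from the other 3. Chance flags about 1 in 20 such groups. Psmd12 was at 104.7 CPM in Mut1454 and at 92.6 to 94.3 CPM in the other mutants, and Psmg3 was at 3.84 CPM in Con1452 and at 3.37 to 3.44 CPM in the other controls.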

How the results depend on the processing

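The count of members that rose, 29, was 26 to 29 with either other tool (DESeq2, limma-voom), scaling by median ratios or after removal of mitochondrial genes, no filter or one at 10 CPM, or the number range of the mice as a term. It was 4 with the term for Y-linked counts, 4 with Mut1819 alone and 13 at an adjusted p under 0.01. With each mouse left out in turn it was 19 to 29, and the count that fell, 1, was 1 to 2, the second gene being Psmd9 without Mut1454. In these fits 20.3 to 23.5% of all genes rose and 19.5 to 22.8% fell. The same shares apply to the pathway counts with a mouse left out. No called member changed sign under any setting, though every setting shares mice with the fit that called them. The median lay between 0.16 and 0.24, and the scalings moved the median of all genes by less than 0.01. Of the other genes of the pathway, 22 rose in the main fit and 9 with the term for Y-linked counts, against 12.6% of all genes. With a mouse left out, 20 to 22 of them rose. The cause of these differences was not tested. Some settings also use fewer mice. With a mouse left out, the group difference was 0.57 to 0.69 in the log2 ratio Psmb10 to Psmb7 and -0.22 to -0.08 in the log2 ratio Psmb8 to Psmb5. That in the log2 ratio Psmb9 to Psmb6 changed sign, from -0.09 without Mut1819 to 0.25 without Mut1393. No paired analysis was possible because the control and mutant mice share no numbers in the labels. Depth limits Psmb8, Psmb9, Psmg3 and Psme2b, and nothing can be said of Psmb11 beyond its 3 reads.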

Other observations

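Levels of different subunits were compared per length, as the authors' FPKM. The 31 core and regulator subunits with Psm names, all of which belong in the 26S particle, spanned a factor of 5.77 in the controls, from Psmc2 at 37.8 ± 2.83 FPKM to Psmb4 at 218 ± 8.73 FPKM (mean ± SD, n = 4). Of the 30 neighbouring pairs in that order, 6 did not overlap between the control mice and 24 did. Psmb4 and Psma7 ranked first and second in both groups and Psmc2 last. Psmb5 stood at rank 14 in controls, at 114 ± 9.003 FPKM, and at rank 6 in mutants, at 180.3 ± 14.97 FPKM. Psmd3 went the other way, from rank 8 at 148 ± 3.90 FPKM to rank 16 at 117 ± 5.28 FPKM. FPKM is relative to all counted reads, of which mitochondrial mRNAs took less in mutants, so FPKM levels are not directly comparable between the groups. The ranks within a group are a description, and no test was made of them.

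The labels do not explain the mouse numbers, which fall in ranges from 1300, 1400 and 1800. Within these the median log2 ratio of the 48 members was 0.10, 0.20 and 0.17. Psme3 was higher by 0.51, 0.64 and 0.57 in the 3 ranges, Psmb5 by 0.29, 0.68 and 0.60 and Psmb10 by 0.34, 0.78 and 0.81, and the ratio for Psmd3 was -0.43, -0.42 and -0.47. Psmg4 was higher by 0.66, 0.94 and 0.38 and Psmd11 by 0.23, 0.49 and 0.36. Each range holds 1 or 2 mice a group. Mut1819 is the only mutant of the range from 1800, so the sex-linked difference lies in the ranges from 1300 and 1400.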
